A study of Mus musculus with 2 samples.

Results

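The Spp1 or Arg1 macrophages without C1q were a small set of myeloid cells in B16 tumors, 104 of 13040 cell barcodes that passed the filter (at least 500 UMIs, 200 genes and under 10% mitochondrial UMIs). A UMI is a unique molecular identifier, which counts 1 captured RNA molecule. The cells were selected on their own measured UMI counts. A cell had to hold at least 3 UMIs of Csf1r plus Lyz2, at least 2 of Spp1 or at least 1 of Arg1, at most 1 of C1qb, and 0 of C1qa, Cd3e and Cd79a. The values of these genes therefore describe the choice and are not findings. There were 58 such cells among 7433 in the h219-LLG library and 46 among 5607 in the control library.

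Tumor macrophages are mostly descended from blood monocytes and change their transcripts with their place in the tumor. Macrophages that take up dying cells in perfused tissue express C1q, the first component of the classical complement pathway. Those in poorly perfused areas often express Spp1 (osteopontin, a secreted ligand of integrins and CD44) together with Arg1 (arginase 1, which breaks down the arginine that T cells need), Thbs1 (thrombospondin 1, a matrix protein that restrains angiogenesis) and Vegfa. Low oxygen stabilizes the transcription factor HIF, which binds short motifs near glucose transporter, glycolysis and angiogenesis genes.

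The cells came from subcutaneous B16 melanomas in Vav-cre human LAIR1 transgenic and mLAIR1-/- mice on a C57bl/6j background, labelled as 6 to 8 weeks old. All mice, controls included, lacked the mouse receptor and carried human LAIR1, an inhibitory receptor for collagens, in blood lineages through Vav-cre. Mice were inoculated with 500000 B16 cells, and from day 5 they were given h219-LLG, an antibody that blocks human LAIR1, or an isotype control at 10 mg/kg every 4 days for 3 doses, until day 16. Live CD45+ cells were sorted and processed by 3' scRNAseq as 1 library per antibody. Neither the labels nor the methods give the number of mice behind a library. With 1 library per condition, an effect of the antibody and a difference between libraries cannot be told apart, no p-value can be had, and all intervals below are 95% intervals for counting error only.

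The members were deeply sequenced for this data set. Their median was 10769.5 UMIs and 2665 genes per cell with h219-LLG and 10229 UMIs and 2516.5 genes in the control, against 5050 and 5796 UMIs over all kept cells. In total 636067 and 495255 member UMIs were available. The libraries shared 13 of their 8807 and 6133 deposited barcodes, and no member barcode was among those shared. A simulated-doublet score placed 1 of 58 and 3 of 46 members among the highest-scoring cells of their library, and these were kept.

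The label of macrophages was checked against genes that the choice did not use. Cd68, a lysosomal protein of macrophages, stood at 591 CPM (the UMIs of a gene per 1000000 UMIs of the class) with h219-LLG and 584 CPM in the control. Fcgr1, the high-affinity IgG receptor, stood at 330 and 291 CPM. Adgre1 (F4/80), by contrast, was low at 102 and 58.6 CPM, and Mertk, an efferocytosis receptor, had 4 and 7 UMIs in all members. The cells thus carried most of the macrophage list, with little of the mature tissue macrophage markers. That list also holds Lyz2, a gene of the choice. Of its 13 measured genes, 2 were at least 2-fold higher than in Ly6c2 monocytes (defined below) in both libraries. The 1 lower gene was Lyz2, which describes the choice. The median log2 ratios of the 13 genes, Lyz2 included, were 0.69 and 0.67. Most of the list thus did not separate the members from monocytes by 2-fold.

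Markers of other cell types ranged from 0 to levels near those of macrophage genes. Of 7 mast cell and basophil genes none had a UMI, and Ly6g, Siglech, Cd3e, Ncr1, Cd79a, Jchain, Mlana, Tyr and Col1a1 were at 0 in both libraries. The 5 B and plasma cell genes summed to 4.72 and 8.08 CPM, and the 8 T and NK cell genes to 42.4 and 98.9 CPM. S100a8 and S100a9, the main neutrophil calprotectin genes, had 8 and 9 UMIs together, while the whole list of 9 neutrophil genes, Cxcl3 included, summed to 373 and 828 CPM. The 12 conventional dendritic cell genes summed to 442 and 448 CPM, the 9 patrolling monocyte genes to 349 and 402 CPM, the 8 plasmacytoid dendritic cell genes to 275 and 210 CPM and the 8 B16 melanoma genes to 178 and 178 CPM. Gpnmb alone held 80 and 58 of the 113 and 88 UMIs of the melanoma list. That list summed to 193 and 167 CPM in C1q macrophages (defined below). Flt3 or Zbtb46, which mark conventional dendritic cells, were seen in 3 of 58 and 2 of 46 members. Classical monocyte genes were the highest of these lists. All 10 were detected, their summed level was 6219 and 5444 CPM, and 20 of 58 and 10 of 46 members held at least 2 UMIs of Ly6c2 and 1 of Ccr2. The part of these other cell types in the results was not tested beyond the values without such members given below.

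Few members lay at the limits of the choice, but more cells lay outside some of them. Inside, 10 cells held exactly 2 Spp1 UMIs without Arg1, and 6 held exactly 1 Arg1 UMI with Spp1 under 2. Outside, 32 otherwise eligible cells held 1 Spp1 UMI and no Arg1, and 535 held neither transcript. For C1q, 6 members held 1 C1qb UMI, 4 cells were left out for 2 C1qb UMIs and 6 for 1 C1qa UMI. A UMI of Cd3e or Cd79a alone left out 78 cells, 39 in each library.

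Spp1 and Arg1 divided the members into 3 kinds. Both transcripts were found in 16 of 58 members with h219-LLG and 14 of 46 in the control, Spp1 without Arg1 in 29 and 20, and Arg1 with Spp1 under 2 UMIs in 13 and 12. Spp1 ranged from 0 to 518 UMIs per cell with a median of 7 with h219-LLG and from 0 to 130 with a median of 5.5 in the control. Arg1 ranged from 0 to 135 and from 0 to 155 UMIs, with medians of 0.5 and 1. Both genes were therefore concentrated in a few cells, and the cell richest in Spp1 held 22.1% of all Spp1 UMIs of the h219-LLG members. Spp1 stood at 3682 CPM with h219-LLG and 1765 CPM in the control, Arg1 at 968 and 1052 CPM, and Lyz2 (lysozyme 2) at 10706 and 5799 CPM. For position, on mm10 Spp1 lies on chromosome 5 (104435118 to 104441050, plus strand), Arg1 on chromosome 10 (24915221 to 24927484, minus strand) and Thbs1 on chromosome 2 (118111876 to 118127133, plus strand), each interval covering the whole gene.

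**Figure D1:**
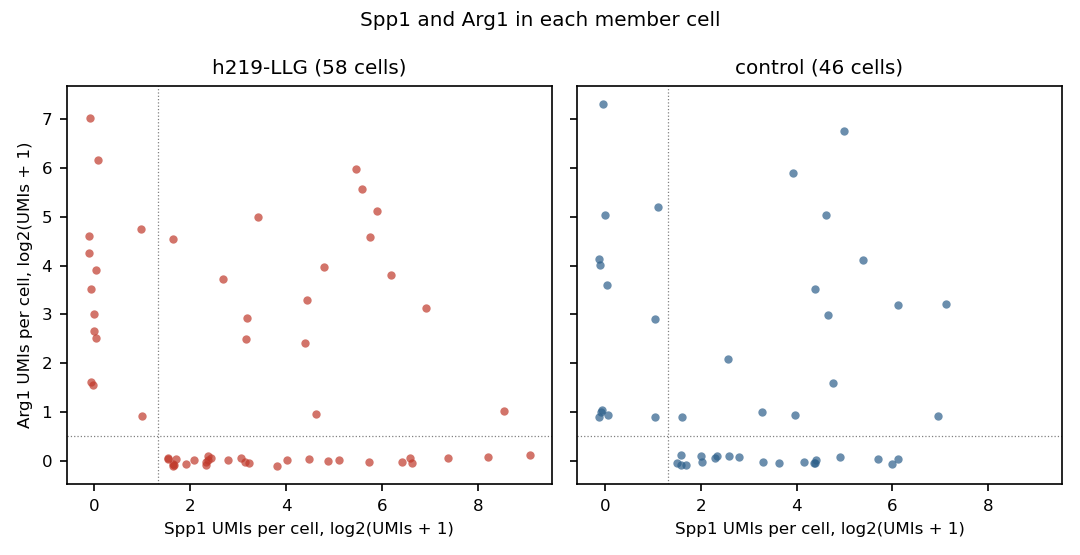
Spp1 (x axis) and Arg1 (y axis) UMIs of each member cell as log2(UMIs + 1), with small random offsets, for the 58 h219-LLG and the 46 control cells. Dotted lines mark the limits of 2 Spp1 UMIs and 1 Arg1 UMI. In both panels the cells fall into a row without Arg1, a column without Spp1 and a scatter of cells with both.

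The first comparison asked whether the antibody went along with fewer of these cells. The shares differed by less than counting error. The members were 0.780% of kept cells with h219-LLG (interval 0.593 to 1.01%) and 0.820% in the control (0.601 to 1.09%), a ratio of 0.951 with an interval of 0.647 to 1.40. Among cells with Csf1r or Lyz2 and without lymphocyte genes they were 9.56% of 607 and 12.7% of 361, a ratio of 0.750 (0.521 to 1.08). In the same libraries Ly6c2 monocytes were 2.68% and 1.37% of kept cells. The second denominator thus held a larger share of monocytes in the h219-LLG library.

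Thbs1, which took no part in the choice, was found in 77.6% of h219-LLG members (45 of 58, interval 64.7 to 87.5%) and 80.4% of control members (37 of 46, 66.1 to 90.6%). It was found in 2.06% and 0.767% of the B reference cells (Cd79a of at least 2 UMIs, median 3549 and 4278 UMIs), which should lack it. Its level was 2050 CPM with h219-LLG and 3356 CPM in the control, against 1268 and 1263 CPM in C1q macrophages. The ratio between the libraries was 0.611 (0.568 to 0.657), 0.725 without the richest cell of each library and 0.948 without the members that held Ly6c2 and Ccr2.

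The second comparison set the members beside C1q macrophages (C1qa and C1qb of at least 2 UMIs each, 121 and 80 cells) and Ly6c2 monocytes (Ly6c2 of at least 2 UMIs, Ccr2 of at least 1, no member, 199 and 77 cells) of the same library. A gene was called only where its CPM ratio passed 2 in the same direction in both libraries. Against C1q macrophages 70 of 2888 genes (2.42%) were higher in the members and 43 (1.49%) lower, and against Ly6c2 monocytes 125 of 3958 (3.16%) were higher and 176 (4.45%) lower. Since the classes were cut by these cells' own transcripts, the counts are a description. There were 22 genes higher than in both classes, and 8 of them belonged to the hypoxia response or glycolysis lists.

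Part of the hypoxia response list was at least 2-fold higher in the members than in each of the other classes. Of its 17 measured genes 7 were called higher than in C1q macrophages and 10 higher than in monocytes, and none was called lower. Against C1q macrophages the count was 3 of 14 in members without Arg1, 4 of 15 without the members that held Ly6c2 and Ccr2, and 1 of 4 after thinning to 2000 UMIs per cell. The median log2 ratio over C1q macrophages was 1.37 in the h219-LLG library and 0.80 in the control library, where all genes tested had medians of -0.04 and 0.07. Over monocytes it was 2.30 and 1.62, beside -0.15 and -0.10 for all genes.

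Vegfa, the main angiogenic growth factor, stood at 296 CPM in h219-LLG members and 262 CPM in control members, against 79.7 and 71.5 CPM in C1q macrophages and 40.8 and 61.5 CPM in monocytes. Its lowest member level was thus above every level of the other classes. Ero1l, an oxidase of disulfide bond formation in the endoplasmic reticulum, stood at 472 and 470 CPM, against 83.8 and 80.0 CPM in C1q macrophages and 44.8 and 39.4 CPM in monocytes. Ero1l was thus even between the libraries in the members. Slc2a1, the glucose transporter GLUT1, stood at 267 and 246 CPM, against 75.5 and 83.4 CPM in C1q macrophages. Egln3, a prolyl hydroxylase that marks HIF for degradation, stood at 116 and 117 CPM, against 21.6 and 47.7 CPM. Hilpda, an inhibitor of triglyceride breakdown, reached 387 and 606 CPM beside 110 and 204 CPM. Of these genes, the interval of the ratio between the libraries' members lay off 1 for Hilpda, which was lower with h219-LLG (ratio 0.638, interval 0.537 to 0.758).

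In glycolysis, 4 of 15 measured genes were called higher than in C1q macrophages and 11 of 14 higher than in monocytes. Gapdh, which yields NADH in glycolysis, stood at 3273 and 3241 CPM in members, 2017 and 2657 CPM in C1q macrophages and 1048 and 1131 CPM in monocytes. Ldha, which makes lactate, stood at 1140 and 1137 CPM in members and 347 and 309 CPM in monocytes. Slc16a3, the lactate exporter MCT4, stood at 261 and 260 CPM, against 99.6 and 109 CPM in C1q macrophages. The gap was thus wide against monocytes and narrow against C1q macrophages for the most abundant enzymes.

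**Figure D2:**
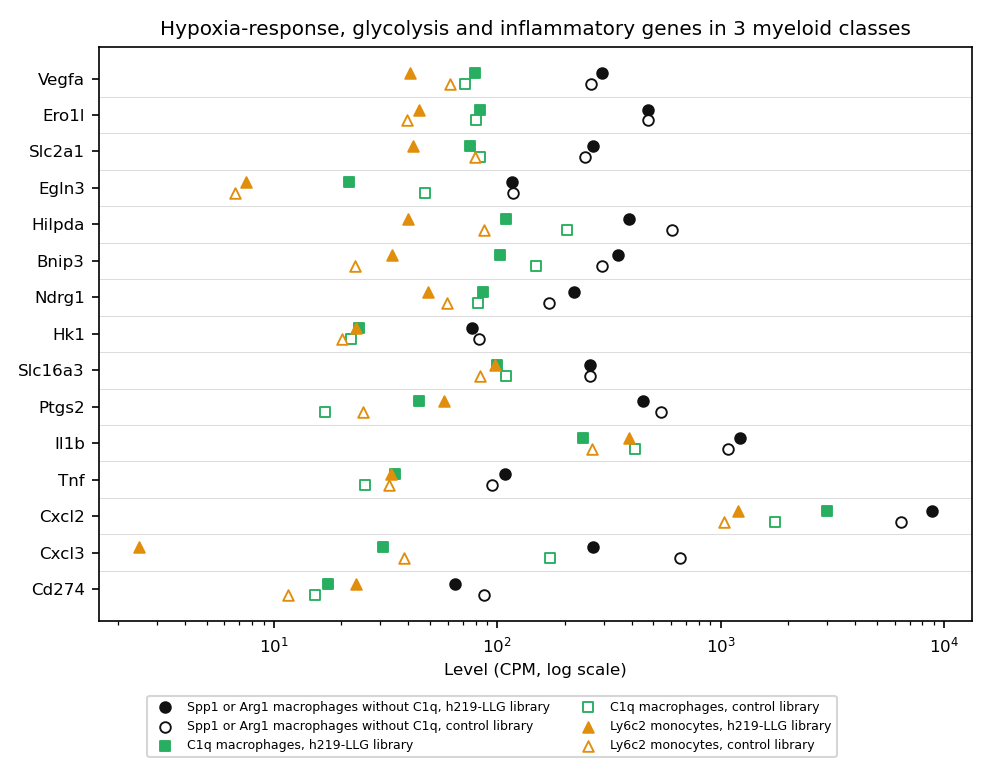
Level of 15 genes in CPM (x axis, log scale) in the members (circles), C1q macrophages (squares) and Ly6c2 monocytes (triangles), with filled symbols for the h219-LLG library and open symbols for the control library. The members of both libraries stand to the right of both other classes in every row. All genes drawn except Bnip3 are from those called higher than in both classes, so their position follows from that selection. Genes of the hypoxia and glycolysis lists that were not called are otherwise not drawn.

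Short HIF motifs lie near the starts of some of these genes. Of the 8 hypoxia or glycolysis genes higher than in both classes, 7 had a promoter window in the RefSeq table for GRCm38.p6 (250 bases before to 50 after a start, matched by symbol, Ero1l under Ero1a, the first listed window where a gene had several). The letters ACGTG, the core of a hypoxia response element, or CACGT on the other strand, were in 4 of these 7, and in 19.6% of all 32817 windows. The letters GCGTG or CACGC were in 3 of 7, and in 32.4% of all windows. A CACGTG palindrome counts as 2 overlapping matches. The 4 windows with ACGTG or CACGT are printed below because they hold these letters, not for the size of their genes' contrast. The windows run 5′ to 3′ on the gene's strand, with these letters in capitals. Ero1l is at chr14:45318523-45318822 (minus strand), Slc2a1 at chr4:119108495-119108794 (plus), Egln3 at chr12:54203825-54204124 (minus) and Slc16a3 at chr11:120948817-120949116 (plus). A match is a description of the letters and no sign of binding.
Ero1l: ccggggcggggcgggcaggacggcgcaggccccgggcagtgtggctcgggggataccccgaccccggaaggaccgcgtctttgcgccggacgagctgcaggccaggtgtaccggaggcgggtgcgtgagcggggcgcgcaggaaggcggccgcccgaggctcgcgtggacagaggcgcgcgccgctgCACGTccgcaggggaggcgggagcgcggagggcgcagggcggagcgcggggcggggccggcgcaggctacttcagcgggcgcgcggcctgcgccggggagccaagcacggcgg
Slc2a1: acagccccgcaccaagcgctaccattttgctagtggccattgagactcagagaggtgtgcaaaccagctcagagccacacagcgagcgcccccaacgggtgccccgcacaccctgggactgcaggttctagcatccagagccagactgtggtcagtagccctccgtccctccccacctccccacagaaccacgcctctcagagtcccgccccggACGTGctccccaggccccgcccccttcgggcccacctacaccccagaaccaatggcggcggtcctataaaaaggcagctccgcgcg
Egln3: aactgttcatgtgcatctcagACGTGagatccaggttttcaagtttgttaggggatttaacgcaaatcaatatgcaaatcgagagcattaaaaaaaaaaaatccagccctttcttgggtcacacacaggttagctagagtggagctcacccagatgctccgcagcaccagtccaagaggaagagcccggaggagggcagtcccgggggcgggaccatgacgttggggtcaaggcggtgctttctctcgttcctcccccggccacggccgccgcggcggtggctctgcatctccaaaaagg
Slc16a3: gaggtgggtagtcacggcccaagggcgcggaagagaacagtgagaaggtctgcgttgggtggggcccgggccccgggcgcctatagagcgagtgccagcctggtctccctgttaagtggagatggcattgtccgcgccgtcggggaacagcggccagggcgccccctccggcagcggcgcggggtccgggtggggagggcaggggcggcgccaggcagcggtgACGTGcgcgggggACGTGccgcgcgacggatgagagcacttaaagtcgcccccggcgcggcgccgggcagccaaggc
Slc16a3 held 2 matches and the other windows 1 each, while none was in the windows read for Vegfa, Hk1 and Hilpda.

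Some inflammatory genes were also above both classes. Of 10 measured inflammatory mediators 3 were called higher than in C1q macrophages and 2 higher than in monocytes, and of the chemokines 2 of 13 were called higher and 2 lower than in C1q macrophages. Ptgs2 (cyclooxygenase 2, the inducible enzyme of prostaglandin synthesis) led the contrast with C1q macrophages, with 448 and 541 CPM in members against 44.8 and 17.0 CPM. It came from a minority of cells, 22 of 58 and 11 of 46 members, and 42.2% of the control UMIs were in 1 cell. Il1b (interleukin 1 beta) was spread more widely, in 40 of 58 and 25 of 46 members. It stood at 1215 and 1082 CPM, against 242 and 412 CPM in C1q macrophages and 390 and 264 CPM in monocytes. Tnf stood at 108 and 94.9 CPM, against 34.9 and 25.5 CPM in C1q macrophages. Cxcl2, a neutrophil attractant, was the most abundant chemokine at 8854 and 6391 CPM, against 2976 and 1756 CPM in C1q macrophages and 1198 and 1037 CPM in monocytes. Cd274 (PD-L1, a ligand that restrains T cells) stood at 64.5 and 86.8 CPM, against 17.4 and 15.3 CPM in C1q macrophages, but also at 38.1 and 46.3 CPM in B reference cells. Cxcl3, a related attractant, rested on some of the members. The lower of its ratios to C1q macrophages was 0.812 without the members with Arg1 and 0.994 without those with Ly6c2 and Ccr2.

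Among genes lower than in C1q macrophages were 3 of 13 measured macrophage identity genes, 3 of 15 lipid genes (1 was higher) and 2 of 21 cathepsin and lysosome genes. The genes named next include the extremes of that ranking. C1qc, which the choice did not use but which is made together with C1qa and C1qb, had 2 and 3 UMIs in members and 1361 and 1261 CPM in C1q macrophages. Ccl12, a monocyte attractant, stood at 33.0 and 30.3 CPM, against 793 and 844 CPM. Igf1, a growth factor, stood at 4.72 and 14.1 CPM, against 106 and 260 CPM. Ms4a7, a membrane protein of tissue macrophages, stood at 66.0 and 40.4 CPM, against 388 and 492 CPM. Folr2, a folate receptor of perivascular macrophages, had no UMI in h219-LLG members, at least 16.2-fold below C1q macrophages against a floor of 3 counts over the members, and stood at 26.2 CPM in control members against 83.4 CPM. All of these were lower than in C1q macrophages in both libraries.

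Against monocytes the members were lower in genes of circulating cells and of the interferon response. Hp (haptoglobin) stood at 151 and 48.5 CPM, against 769 and 702 CPM in monocytes, and Chil3 at 442 and 319 CPM, against 1624 and 1267 CPM. Of 8 measured type I interferon genes 4 were called lower and none higher, with median log2 ratios of -1.42 and -1.35. Of 15 measured lipid handling genes 7 were called higher than in monocytes and none lower, and of 21 cathepsin and lysosome genes 5 were called higher, with median log2 ratios of 0.08 and 0.06 for the latter. Lpl (lipoprotein lipase) stood at 486 and 240 CPM against 41.8 and 27.8 CPM, and Cd63 at 151 and 164 CPM against 12.9 and 25.9 CPM. Mmp12 (macrophage elastase) stood at 456 and 448 CPM, against 19.4 and 5.76 CPM. In Cd63 and Lpl the members thus lay between monocytes and C1q macrophages, where Cd63 was 481 and 769 CPM and Lpl 506 and 536 CPM.

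Within the members, the cells with Arg1 (29 and 26) were compared with those without (29 and 20) in each library. Of 1295 genes with at least 50 UMIs in each library, 27 (2.08%) were at least 2-fold higher in both libraries in the cells with Arg1 and 4 (0.309%) at least 2-fold lower. The median depth was 10273 and 9782 UMIs in cells with Arg1 and 11173 and 10949 UMIs in those without, lower with Arg1 in both libraries, and its part in the split was not tested. Of 15 hypoxia genes measured here 5 were higher, and of 12 matrix and adhesion genes 4 were. Other genes went opposite ways in the libraries, among them Ccl3 with a ratio of 4.48 with h219-LLG and 0.267 in the control, and the class II list had median log2 ratios of -0.09 and -2.47.

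Ero1l stood at 743 and 754 CPM in cells with Arg1, against 206 and 195 CPM in cells without, which were still above C1q macrophages. Bnip3, a mitophagy receptor, stood at 492 and 435 CPM against 206 and 159 CPM. Ptgs2 stood at 759 and 910 CPM against 143 and 183 CPM. The gap for each of these was alike in the 2 libraries. Thbs1 stood at 2866 and 5167 CPM against 1249 and 1599 CPM, and Fn1 (fibronectin) at 2387 and 2251 CPM against 1050 and 712 CPM. F13a1 (coagulation factor XIII, which cross-links fibrin) stood at 784 and 988 CPM against 246 and 227 CPM. Each of these named genes was thus higher in cells with Arg1 in each library. Mrc1 (the mannose receptor CD206) stood at 286 and 431 CPM against 90.3 and 99.5 CPM, but much of its control level came from 1 cell. Ly6c2 was at the other end, at 140 and 98.4 CPM in cells with Arg1 against 421 and 235 CPM. Hsph1, a heat shock chaperone, was also lower, at 47.6 and 73.8 CPM against 140 and 366 CPM.

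**Figure D3:**
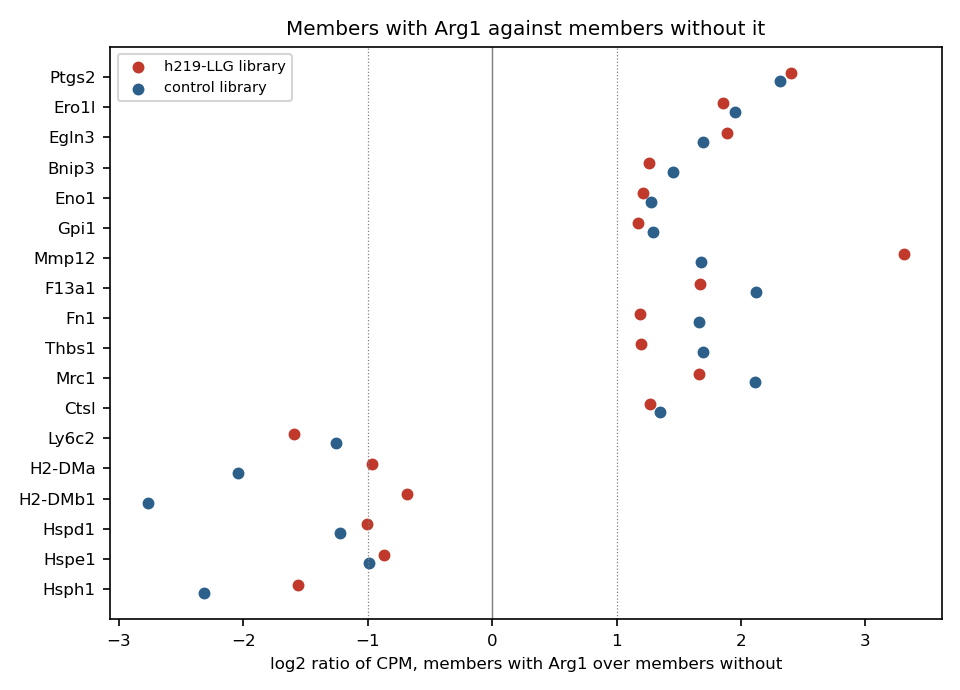
log2 ratio of CPM between members with and without Arg1 (x axis) for 18 genes, with red points for the h219-LLG library and blue points for the control library and dotted lines at a 2-fold difference. Hypoxia, matrix and protease genes stand to the right in both libraries, while H2-DMa, H2-DMb1, Ly6c2 and chaperone genes stand to the left, the H2-DM genes much farther in the control.

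The third comparison asked how the members differed between h219-LLG and control. Of 3022 genes with at least 50 UMIs over both libraries, 58 (1.92%) were at least 2-fold higher with h219-LLG and 61 (2.02%) at least 2-fold lower, and the median log2 ratio was -0.04. How many passed depended on the gene minimum: with at least 200 UMIs per gene, 10 of 801 were higher and 3 lower.

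The genes of the MHC class II presentation list, which serve the display of peptides to CD4+ T cells, all stood on one side. All 7 measured genes of 11 were higher with h219-LLG, 1 of them past 2-fold, and the median log2 ratio was 0.87. The 7 include Ctss (cathepsin S), which is a protease and no class II molecule. Cd74 (the invariant chain) stood at 5026 CPM with h219-LLG and 2611 CPM in the control, a ratio of 1.93 (1.80 to 2.06). H2-Aa stood at 2352 and 1288 CPM (ratio 1.83, 1.66 to 2.01) and H2-DMb1, a subunit of the peptide exchange factor, at 314 and 129 CPM (ratio 2.43, 1.83 to 3.28). A single control cell held 32.6% of the Cd74, 44.2% of the H2-Aa and 40.6% of the H2-DMb1 UMIs. Without the richest cell of each library the ratios were higher, 2.50 for Cd74, 2.85 for H2-Aa and 3.63 for H2-DMb1.

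More cells carried class II RNA with h219-LLG. H2-Aa was found in 70.7% of members with h219-LLG (41 of 58, interval 57.3 to 81.9%) and in 32.6% in the control (15 of 46, 19.5 to 48.0%). In T reference cells (Cd3e of at least 2 UMIs, median 6298 and 7376 UMIs), which should lack it, the share was 14.1% and 10.3%. Summed over H2-Aa, H2-Ab1, H2-Eb1 and Cd74, the level per cell ranged from 0 to 569 UMIs per 10000 with a median of 44.1 with h219-LLG, and from 0 to 455 with a median of 5.53 in the control. A level of at least 20 per 10000, a value chosen after the distribution was seen, was reached by 33 of 58 members (56.9%) with h219-LLG and 14 of 46 (30.4%) in the control, and by 1.65% and 1.40% of T reference cells. B cells carry much class II RNA (Cd74 at 9113 and 9864 CPM in B reference cells), and the B cell gene Cd79b had 2 and 3 UMIs and Ms4a1 had 0 and 1 in all members, which were chosen for 0 UMIs of Cd79a. The part of B cell RNA in the class II values was not tested.

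The class II ratios were highest in the members with Arg1. There Cd74 stood at 5097 CPM with h219-LLG and 804 CPM in the control (ratio 6.34, interval 5.46 to 7.39), H2-Aa at 2177 and 213 CPM (ratio 10.2, 7.70 to 13.8) and H2-Eb1 at 2123 and 127 CPM (ratio 16.7, 11.7 to 24.8). Much of the H2-Eb1 level came from few cells. Single h219-LLG cells held 218, 123 and 120 of its 669 UMIs, and a single control cell held 19 of 31. The cell with 218 and the control cell with 19 each counted as cells with Arg1 on 1 Arg1 UMI. H2-Aa was found in 20 of 29 such cells with h219-LLG and 7 of 26 in the control. The control cells with Arg1 thus stood lowest. In members without Arg1, Cd74 stood at 4956 and 4364 CPM (ratio 1.14, 1.05 to 1.23) and H2-Aa at 2523 and 2331 CPM (ratio 1.08, 0.972 to 1.21). A single control cell held 422 of the 1097 Cd74 and 282 of the 586 H2-Aa control UMIs there, which raised the control levels. The median class II level per cell without Arg1 was 47.7 UMIs per 10000 with h219-LLG and 12.1 in the control. At least 20 per 10000 were held by 16 of 29 and 9 of 20 of these cells. At least 20 class II UMIs per 10000 were held by 17 of 29 (58.6%, interval 38.9 to 76.5%) against 5 of 26 (19.2%, 6.55 to 39.4%) of the cells with Arg1. The difference between the kinds of member was not tested, since each kind had 1 library per condition.

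**Figure D4:**
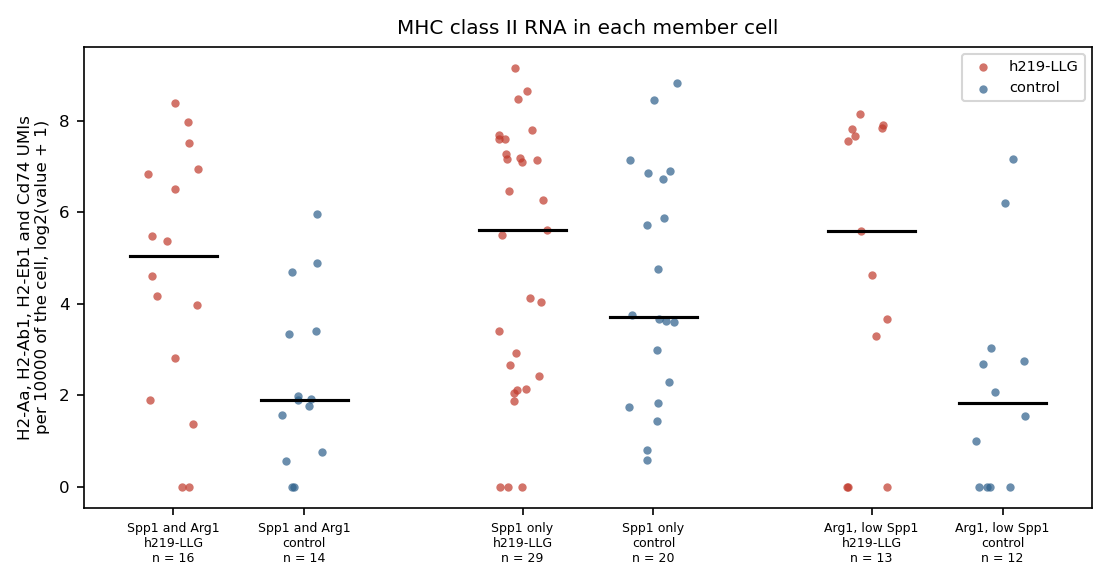
Summed H2-Aa, H2-Ab1, H2-Eb1 and Cd74 UMIs per 10000 UMIs of each member cell, as log2(value + 1), by kind of member and library, with black lines at the medians. Control cells with Arg1 lie mostly near the bottom, while cells of every other kind spread over the whole range.

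Chemokines differed between the libraries in both directions. Of 14 measured genes 10 were higher with h219-LLG, 4 of them at least 2-fold, and 4 were lower, 3 at least 2-fold. Ccl2, the main attractant of CCR2+ monocytes, stood at 3083 CPM with h219-LLG and 1117 CPM in the control (ratio 2.76, interval 2.51 to 3.04), and was found in 40 of 58 and 25 of 46 members. It was alike in members with Arg1 (ratio 2.74) and without (2.79), though thinning of all cells to 2000 UMIs left a ratio of 1.61. Ccl4, an attractant of monocytes and T cells, stood at 959 and 260 CPM (ratio 3.68, 3.04 to 4.49), although it was found in 23 of 58 and 20 of 46 members. The share of cells with Ccl4 was thus no higher, and 32.3% of its h219-LLG UMIs were in 1 cell. Ccl3 stood at 755 and 402 CPM (ratio 1.88, 1.59 to 2.23), with opposite directions in members with Arg1 (ratio 7.38) and without (0.441). Ccl2 and Ccl4 were higher with h219-LLG in C1q macrophages as well, at 2418 and 1244 CPM and at 814 and 220 CPM. In Ly6c2 monocytes Ccl2 stood at 356 and 166 CPM and Ccl4 at 298 and 317 CPM.

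Other chemokines came from few cells. Cxcl1, a neutrophil attractant, stood at 432 and 56.5 CPM (ratio 7.65, 5.17 to 11.7). It was found in 10 and 4 members, and among members without Arg1 the ratio was 0.320. Pf4 (platelet factor 4, also made by macrophages) stood at 321 and 1589 CPM (ratio 0.202, 0.172 to 0.236), and 76.6% of the control UMIs were in 1 cell, without which the ratio was 0.673. Ppbp, a platelet chemokine, had 153 UMIs in 2 control members and none with h219-LLG, at least 65.5-fold lower against the floor of 3 counts. Cxcl3 stood at 267 and 658 CPM (ratio 0.406, 0.335 to 0.490) from 9 members in each library. Without the members that held Ly6c2 and Ccr2 the direction turned for Cxcl3 (2.32) and Pf4 (1.07). In C1q macrophages Cxcl1 stood at 354 and 23.8 CPM and Cxcl3 at 30.7 and 172 CPM, so both differed there in the members' direction.

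**Figure D5:**
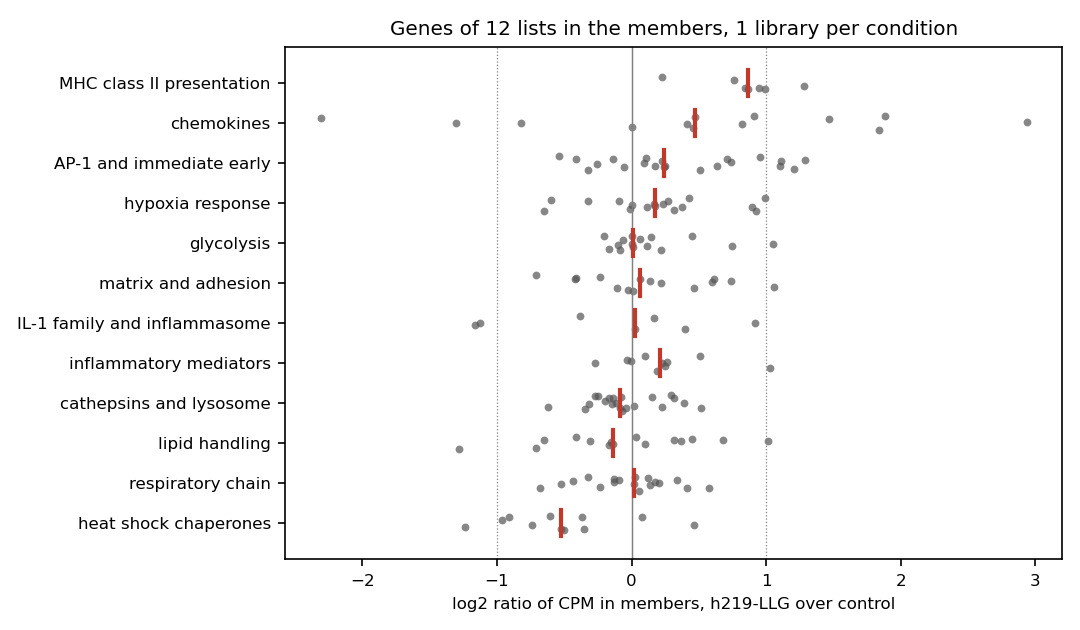
log2 ratio of CPM in the members, h219-LLG over control (x axis), for the measured genes of 12 lists, with a grey point for each gene, a red line at each list's median and dotted lines at a 2-fold difference. The class II median is 0.87, the heat shock median is -0.53 and the hypoxia and glycolysis medians are 0.17 and 0.01. Ppbp, with 0 UMIs in h219-LLG members, is not drawn. The matrix and adhesion point past 2-fold is Spp1, a gene of the choice.

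The hypoxia and glycolysis genes that set the members apart had medians near 0 between the libraries. Of 17 measured hypoxia genes 12 were higher and 5 lower, none past 2-fold, with a median log2 ratio of 0.17. Of 15 glycolysis genes 10 were higher and 5 lower, with a median of 0.01, and only Pfkl, a phosphofructokinase subunit, passed 2-fold (ratio 2.08, interval 1.24 to 3.61) on 56 and 21 UMIs, with the opposite direction after thinning (0.504). Vegfa (ratio 1.13, 0.896 to 1.42) and Ero1l (1.00, 0.842 to 1.19) had intervals that held 1. Hmox1 (heme oxygenase 1) stood at 1262 and 636 CPM (ratio 1.98, 1.74 to 2.27), with opposite directions in members with Arg1 (ratio 3.06) and without (0.257).

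Immediate early genes, induced within minutes of a stimulus, were mostly higher with h219-LLG. Of 21 measured genes 15 were higher, 4 of them at least 2-fold, and 6 lower, with a median log2 ratio of 0.24. Fos stood at 1523 and 709 CPM (ratio 2.15, 1.90 to 2.44) and Zfp36, which speeds the decay of cytokine RNAs, at 835 and 388 CPM (ratio 2.15, 1.82 to 2.55). Fos was also 561 and 307 CPM in B reference cells and 1956 and 1124 CPM in Ly6c2 monocytes. Fos was thus higher in the h219-LLG library in these classes as well.

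Heat shock chaperones were mostly lower with h219-LLG, 9 of 11 measured genes, with a median log2 ratio of -0.53. Hspa1a (HSP70) stood at 934 and 1755 CPM (ratio 0.532, 0.479 to 0.591), from 18 and 15 members. It was 35.1 and 220 CPM in B reference cells and 136 and 1349 CPM in monocytes, also higher in the control library. In C1q macrophages it was near even, at 214 and 226 CPM. Members with Arg1 went the opposite way to all members, with a list median of 0.34 and an Hspa1a ratio of 2.82.

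In the IL-1 family, Il1b had a ratio of 1.12 (1.00 to 1.26). Nlrp3, the sensor of the inflammasome that activates it, stood at 102 and 228 CPM (ratio 0.448, 0.325 to 0.613), in 34 and 28 members. Nlrp3 was lower with h219-LLG in C1q macrophages (40.7 and 93.6 CPM) and monocytes (115 and 153 CPM) as well. Il1rn, the receptor antagonist, stood at 88.0 and 192 CPM (ratio 0.459, 0.324 to 0.645). Among matrix and adhesion genes 9 of 15 were higher and 6 lower with a median log2 ratio of 0.06. The 9 include Spp1, a gene of the choice and the only one of the list past 2-fold. Fn1 stood at 1712 and 1470 CPM (ratio 1.16, 1.06 to 1.28). Timp1, an inhibitor of matrix proteases, stood at 78.6 and 24.2 CPM (ratio 3.24, 1.70 to 6.69) from 9 and 3 members, and 0.470 after thinning. Sdc1, a heparan sulfate proteoglycan, stood at 59.7 and 210 CPM (ratio 0.284, 0.191 to 0.416) from 10 and 18 members, and was lower also without the richest cells (0.230).

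Genes of some proteins the study followed on human myeloid cells were measured thinly here. The paper read CD86 and CD206 as surface protein on human macrophages grown in vitro. CD163, and CD86 again, were read on suppressor myeloid cells enriched from a patient. The values here are RNA in mouse tumor cells, so the measures differ. Cd86, a costimulatory ligand, stood at 165 and 194 CPM (ratio 0.852, interval 0.640 to 1.14), and Mrc1 at 187 and 262 CPM (ratio 0.713, 0.551 to 0.921), which turned to 1.19 without the richest cell of each library. Cd163, a hemoglobin scavenger receptor, had 1 and 0 UMIs. Mouse Lair1 had 21 and 15 UMIs in members of both libraries (33.0 and 30.3 CPM, ratio 1.09, 0.536 to 2.27) although all mice were labelled mLAIR1-/-. Reads at the 3' end do not show whether the deleted part of a gene is present, so this does not check the genotype. Human LAIR1 is not among the genes counted here.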

How the data were processed

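Live CD45+ cells of B16 tumors were measured as 1 3' scRNAseq library per antibody. The authors deposited unnormalized UMI counts for each gene and called cell barcode, made with Cell Ranger 5.0.0 on mm10 according to the submitters' processing notes and the file headers. Members and gene lists were chosen with earlier results of these data known. UMIs were summed over the cells of a class and library and divided by their total (CPM). Shares have exact Clopper-Pearson intervals, CPM exact Poisson intervals, and ratios a binomial interval on how the UMIs divide between the libraries (95%, counting error only, since cells of 1 library are not replicates). Genes with at least 50 UMIs were compared, and called past 2-fold. Named genes were the genes of the choice, its markers and those the study followed, the 2 highest, 2 lowest and 2 most abundant of each list, and the 8 extremes of each ranking. Vegfa, Cd68, Fcgr1, Slc2a1, Ldha, Slc16a3, Hk1, Tnf, Ms4a7, Cd63, Bnip3, Fn1, F13a1, H2-Aa, Ccl3 and Zfp36, and the genes under 50 UMIs, were named outside this rule after their values were seen. Of the listed genes, 14 entries were not in the deposited gene list. The ratio and the choice were tested on simulated counts. Python 3.11.15 with numpy 2.4.6, scipy 1.17.1, scikit-learn, and edgeR 4.0.16 for TMM factors were used. Some genes are not reported here. No doublets were removed in the values reported, and removal of the highest simulated-doublet scores was an alternative.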

Additional observations from a re-analysis of the deposited data

How the results depend on the processing

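No paired analysis was possible because each condition had 1 library, and no replicate could be left out for the same reason. The member share ratio stayed within its counting interval under all 13 alternatives (0.750 to 1.19). The count of genes at least 2-fold higher with h219-LLG was 58, and moved to 255 with at least 20 UMIs per gene, 10 with at least 200, 114 for the mean of per-cell CPM, 9 after thinning to 2000 UMIs, and 97 without each gene's top member. The count of lower genes was 61, and moved to 260, 3, 106 and 17 under the first 4 of these. With the TMM factor 69 were higher and 56 lower, so 55.2% of calls were higher in place of 48.7%. The 22 genes higher than in both other classes became 40 in members with Arg1, 9 in those without, 14 with Csf1r plus Lyz2 of at least 10 and 8 after thinning. In members without Arg1, 37 genes were higher than in C1q macrophages and 73 higher than in monocytes. After thinning these were 26 and 34, with 17 lower than in C1q macrophages and 17 lower than in monocytes, and 591 genes could be compared between the libraries. Thinning, the gene minimum and the subsets test fewer or more genes by construction.

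The class II list median (log2) was 0.87 and ranged from 0.18 in members without Arg1 to 2.67 in members with Arg1. The heat shock median turned to 0.34 in members with Arg1. Between the libraries, ratios of genes past 2-fold crossed 1 for Cxcl1 (0.320) and Egr1 (0.416) in members without Arg1, for Gadd45g (0.806), Milr1 (0.906), Pfkl (0.504), Timp1 (0.470) and Vps37b (1.02) after thinning, for Mmp19 (1.04) with Spp1 of at least 4 or Arg1 of at least 2, and for AA467197 (1.28), Cxcl3 (2.32) and Pf4 (1.07) without the members that held Ly6c2 and Ccr2. Among other genes of the report, Ccl3 (0.441), Hmox1 (0.257) and Cxcl2 (0.891) did so without Arg1, Hspa1a (2.82) with Arg1, Hmox1 (0.639) after thinning, and Mrc1 without its top member (1.19), the Ly6c2 and Ccr2 members (1.48) or those with S100a8 or S100a9 (1.13). Against C1q macrophages Cxcl3 fell under 1 in members without Arg1 (0.812) and without the Ly6c2 and Ccr2 members (0.994), and Hspa1b in members with Arg1 (0.906). Against monocytes Gpnmb did so in members without Arg1 (0.828), and Serpinb10 rose above 1 after thinning (1.14). The cause of these shifts was not tested, and a ratio over 0 UMIs (Arg1 over monocytes and single values of Il1r2, Egln3, Il1a and Mt2) was left out. Leaving out the Ly6c2 and Ccr2 members, leaving out each gene's top member, and every alternative for the comparison with the other classes were chosen after seeing the data. Depth limits genes under 50 UMIs, and free RNA of other cells was measured only through the B and T reference cells.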

Other observations

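Of the lists not yet described, those with at least 9 measured genes had median log2 ratios between the libraries from -0.27 (proteases and fibrinolysis, 3 higher and 6 lower) to 0.21 (inflammatory mediators, 7 higher and 3 lower). The 18 respiratory chain genes had a median log2 ratio of 0.02, with 10 higher and 8 lower, and the 21 measured cathepsin and lysosome genes a median of -0.09, with 7 higher and 14 lower. Among inhibitory receptors, Milr1 stood at 81.8 CPM with h219-LLG and 34.3 CPM in the control (ratio 2.38, interval 1.36 to 4.39), and Pilra at 153 and 74.7 CPM (ratio 2.04, 1.38 to 3.07). Olfm1 was found in 29 of 58 and 10 of 46 members, at 134 and 42.4 CPM (ratio 3.15, 1.94 to 5.35).

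Spp1 was not particular to these cells. Of the C1q macrophages, 52 of 121 with h219-LLG and 37 of 80 in the control held at least 2 Spp1 or 1 Arg1 UMIs, which is 43.0% and 46.2%. Spp1 stood at 2030 and 1178 CPM in C1q macrophages and at 4.48 and 2.88 CPM in Ly6c2 monocytes, from which the choice removed every cell with more than 1 Spp1 UMI.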
